A study of Homo sapiens with 10 samples.

Results

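The genes described here encode the proteins of the cytosolic ribosome, measured by RNA sequencing in 3 human lung cancer lines, each with its own p53 mutation. Members were the protein-coding genes named RPL or RPS with a number and an optional A, L1 or X suffix, together with RPLP0, RPLP1, RPLP2 and RPSA. Ribosomal S6 kinases, RPS27L, pseudogenes and 1 Y-linked copy were left out. This gave 80 genes, 49 of the large (60S) subunit and 31 of the small (40S) subunit, among 57736 gene IDs in the table. NCI-H2087 cells have the V157F form of p53. The other lines are NCI-H441, with R158L, and NCI-H2110, with R158P. Every line was given an siRNA against p53 or with a control siRNA. NCI-H2087 and NCI-H441 had 2 libraries with p53 siRNA and 2 with control siRNA, and NCI-H2110 had 1 of each. With only 1 line per mutation, effects of the mutation and of the line cannot be told apart. The sample titles call the p53 siRNA libraries a knockout, whereas the protocol names an siRNA. The labels do not say whether replicates came from separate cultures, so p-values here reflect only how far these libraries differ, which may be technical.

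Cytosolic ribosomal proteins assemble with ribosomal RNA in the nucleolus and cytoplasm, and most of them are needed in equal copies in every ribosome. Their mRNAs typically begin with a C followed by an unbroken run of pyrimidines, the 5′ terminal oligopyrimidine (TOP) tract, through which mTORC1 and LARP1 control translation. When assembly is disturbed, free RPL5 and RPL11, bound to 5S ribosomal RNA, can inhibit MDM2, the main ubiquitin ligase of wild-type p53.

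The start of transcription is where most of these genes share sequence. Of the 80 genes, 65 were matched in the RefSeq promoter table (GRCh38.p14), which gives 250 bases before and 50 after each start. A C followed by at least 4 bases that were each C or T lay at the start in 47 of the 65 (72.3%), against 6.42% of all 14632 protein-coding symbols in the table. The motif CCGGAAG, read on either strand and counted whether or not it overlapped the start run, occurred in 23 of the 65 windows (35.4%), against 16.9% of all. TATAAA in the 50 bases before the start occurred in 3 (4.62%), against 4.31% of all. A match is a description of these letters and not evidence of a bound factor. The 30 bases from 20 before the start to 10 after its first base inclusive are shown for 3 genes that rose in NCI-H2087 (RPL10, RPL36, RPS4X), for 2 that differed between the lines in opposite directions (RPLP2, RPL39), and for a pair of closely related genes with different starts (RPL26, RPL26L1). Capitals mark the start base with the pyrimidine run that follows it, or the start base alone where there was no such run. The window cuts the run short in RPL10, RPLP2, RPL39 and RPL26, where it is 12, 13, 19 and 12 bases long.
RPL10: atgcgcaggcggaggagcgcCTCTTTCCCT
RPL36: gagttccgcgcggcgccagcCCTTCCgcca
RPS4X: cgcgcgcagtctccagccccAatttctacg
RPLP2: gcctcttgcgtcggcgccttCCTTTTCCTC
RPL39: gctcgttcttccgccagcttCCCTCCTCTT
RPL26: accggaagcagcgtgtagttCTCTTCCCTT
RPL26L1: caggcagtcttccaggggtcGgcgaacgaa
In GRCh38.p14 these windows are chrX:154398357-154398386 on the plus strand for RPL10, chr19:5690275-5690304 (plus) for RPL36 and chrX:72277239-72277268 (minus) for RPS4X. They are chr11:809947-809976 (plus) for RPLP2 and chrX:119791621-119791650 (minus) for RPL39. The RPL26 window is chr17:8383184-8383213 (minus) and that of RPL26L1 is chr5:172958709-172958738 (plus). RPL10 and RPL26L1 have more than 1 start in the table, with 3 and 2 entries, and the first entry with a run, or else the first entry, is shown. RPS4X, an X-linked small subunit gene, and RPL26L1 have no run at the listed start, while the other 5 do.

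Library totals ran from 18336672 to 25810934 counts, and all 80 genes passed the filter on low counts. The lines were checked against lung epithelial markers: all 8, among them EPCAM, KRT18 and NKX2-1, had counts in every library. Of 11 immune, endothelial and fibroblast markers in the table, 5 passed the filter on low counts: COL1A1, COL3A1, LYZ, CDH5 and CD14. In each library 7 to 9 of the 11 had fewer than 10 counts, and CD3E, PTPRC and DCN were at or near 0. Their summed level was 13.8 and 18.2 CPM with p53 siRNA and 16.8 and 20.7 CPM with control siRNA in NCI-H2087, 36.3 and 28.6 against 32.1 and 22.6 CPM in NCI-H441, and 59.5 against 49.1 CPM in NCI-H2110. Levels below are CPM, the usual depth-scaled counts, on TMM-scaled library sizes, and calls are genes with an adjusted p below 0.05 in edgeR's quasi-likelihood test with Benjamini-Hochberg adjustment over 17978 genes.

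The 80 genes took a large share of each library. In NCI-H2087 it was 8.41% and 9.78% of all counts with p53 siRNA and 7.81% and 8.04% with control siRNA, or 9.09 ± 0.97% and 7.92 ± 0.17% (SD, n = 2 each). In NCI-H441 it was 7.93% and 7.75% with p53 siRNA and 7.50% and 7.15% with control siRNA, or 7.84 ± 0.12% and 7.33 ± 0.25% (SD, n = 2 each). The NCI-H2110 libraries had 4.12% with p53 siRNA and 5.16% with control siRNA. NCI-H2087 and NCI-H441 thus each had both p53 siRNA libraries above both control libraries, and in NCI-H2110 the p53 siRNA library lay below the control library. Half-widths of the 95% Wilson intervals ranged from 0.0081 to 0.012 percentage points and cover counting error only. In bulk RNA, fewer cells of a type and less RNA per cell cannot be told apart, and a share can also move with the counts of other genes. Counts on mitochondrial-DNA-like nuclear pseudogenes moved with the siRNA in NCI-H2087, at 2.48% and 2.25% of counts with p53 siRNA against 4.85% and 5.51% with control siRNA, and their part in the result was not tested. They took 5.16% and 4.77% against 5.74% and 3.94% in NCI-H441, and 12% against 11.8% in NCI-H2110.

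**Figure D1:**
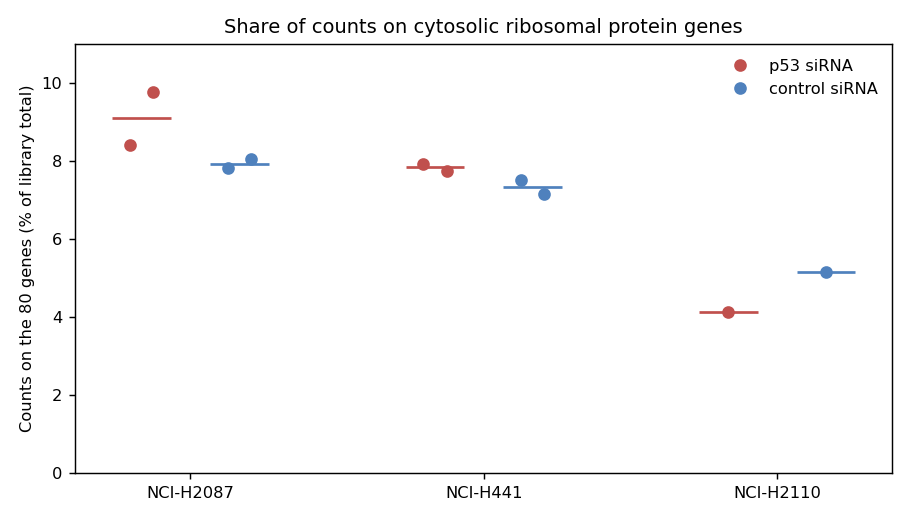
Share of each library's counts on the 80 genes (y axis, percent of the library total), with p53 siRNA and control siRNA libraries side by side for each line; each point is 1 library and each bar the mean of its group. The p53 siRNA libraries reached 8.41% and 9.78% in NCI-H2087, above its control libraries, and 4.12% in NCI-H2110, below its control library at 5.16%.

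In NCI-H2087, 4 of the 80 genes rose with p53 siRNA (edgeR, adjusted p below 0.05) and 0 fell, against 4.98% of all genes called higher and 3.69% called lower. The share of members called higher thus lay near that of all genes. At an unadjusted p below 0.05 in edgeR, 46 were higher and 0 lower, but the share of all genes at that level was not counted. DESeq2 called 29 of the 80 higher and 0 lower, against 8.73% and 5.65% of all genes. With limma-voom 9 were called higher and 0 lower, against 5.02% and 3.95% of all genes. The fitted change was positive for 79 of the 80, with a median log2 fold change of 0.41 and quartiles of 0.30 and 0.50, against a median of -0.03 over all genes tested. With libraries scaled by their totals alone, the median of all genes moved by -0.17; the 80 genes then had a median of 0.23, which lay 0.44 above that of all genes under both scalings, and 73 stayed positive. Libraries of the 2 siRNA groups did not overlap for 70 genes, all higher with p53 siRNA, against 25.4% of all genes higher and 30.4% lower. Under scaling by totals, 51 did not overlap in the higher and 2 in the lower direction, against 17% of all genes higher and 41.2% lower. The large and small subunits had close medians, 0.42 for the 49 RPL genes and 0.39 for the 31 RPS genes.

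RPL10, a late-joining protein of the large subunit close to the catalytic centre, had 786 and 877 CPM with p53 siRNA against 449 and 514 CPM with control siRNA. Its log2 fold change was 0.79 ± 0.16 (edgeR adjusted p = 0.0159), the largest among the 80. RPL23A, which lines the exit of the nascent peptide tunnel, had 451 and 468 CPM with p53 siRNA against 277 and 282 CPM with control siRNA, a change of 0.72 ± 0.15 (edgeR adjusted p = 0.0187). The groups did not overlap for either gene, and the replicates of each group were closer to each other than to the other group.

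RPL36, a small protein of the large subunit, had 331 and 382 CPM with p53 siRNA against 233 and 223 CPM with control siRNA, a log2 change of 0.64 ± 0.15 (edgeR adjusted p = 0.0296). RPS4X had 2871 and 3177 CPM with p53 siRNA against 1967 and 1957 CPM with control siRNA, a change of 0.62 ± 0.16 (edgeR adjusted p = 0.0437). For each gene both p53 siRNA libraries lay above both control libraries. Most removals of 1 library ended the calls: 0 of the 80 genes were called without control replicate 1, without control replicate 2 or without p53 siRNA replicate 2, and 6 without p53 siRNA replicate 1. Leaving out 1 library, the largest adjusted p was 0.13 for RPL10, 0.152 for RPL23A, 0.215 for RPL36 and 0.238 for RPS4X. With the replicate number as a block, 49 of the 80 genes rose and 0 fell, against 12.8% of all genes called higher and 12.6% lower.

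Genes with estimates of like size did not pass the test without the replicate block. RPS15, a small subunit head protein near the decoding centre, had 252 and 326 CPM with p53 siRNA against 196 and 157.6 CPM with control siRNA (log2 fold change 0.71 ± 0.21, edgeR adjusted p = 0.0705). RPL7A, of the large subunit, had 1091 and 1288 CPM against 771 and 729 CPM with control siRNA (0.66 ± 0.22, edgeR adjusted p = 0.096). Their groups did not overlap either, but their standard errors were wider than those of RPL23A and RPL36. With the replicate block both passed (edgeR adjusted p = 0.00412 for RPS15 and 0.00204 for RPL7A).

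The 5S particle proteins were read for their known link to p53. RPL5 had 2950 and 3299 CPM with p53 siRNA in NCI-H2087 against 2125 and 2166 CPM with control siRNA (log2 fold change 0.54 ± 0.15, edgeR adjusted p = 0.0564). RPL11 had 616 and 835 CPM against 541 and 591 CPM with control siRNA (0.36 ± 0.17, edgeR adjusted p = 0.231). For both genes the p53 siRNA libraries lay above the control libraries, though neither passed the test. The replicate block gave an adjusted p of 0.00484 for RPL5 and of 0.0687 for RPL11.

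The stalk proteins, which recruit elongation factors, had changes of 0.36 ± 0.16 for RPLP0, 0.50 ± 0.15 for RPLP1, 0.45 ± 0.15 for RPLP2 and 0.40 ± 0.17 log2 for RPL12, the protein at its base. None of the 4 was called, with edgeR adjusted p between 0.0686 and 0.191, and all 4 passed with the replicate block. RPSA, a small subunit protein also known as a laminin receptor precursor, stood at 0.28 ± 0.14. Of the 16 members listed as genes of Diamond-Blackfan anaemia, an inherited red cell aplasia, 0 were called and all 16 estimates were positive, with a median of 0.37; 9 of them were called with the replicate block, a fit that called 12.8% of all genes higher.

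At the low end, 10 genes had overlapping groups in NCI-H2087, among them RPS26, RPL19, RPL26, RPL22L1, RPL13A, RPS25, RPS27, RPS20 and RPL7L1. RPS20, of the small subunit head, had 3308 and 3413 CPM with p53 siRNA against 3365 and 3300 CPM with control siRNA. RPL7L1, a relative of RPL7 that takes part in ribosome assembly, had 179 and 187 CPM against 189 and 177 CPM with control siRNA. The RPL7L1 levels with p53 siRNA lay within the range of the controls, as did 1 of the RPS20 levels. RPS20, RPS25, RPS27 and RPL22L1 had negative estimates under scaling by totals.

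**Figure D2:**
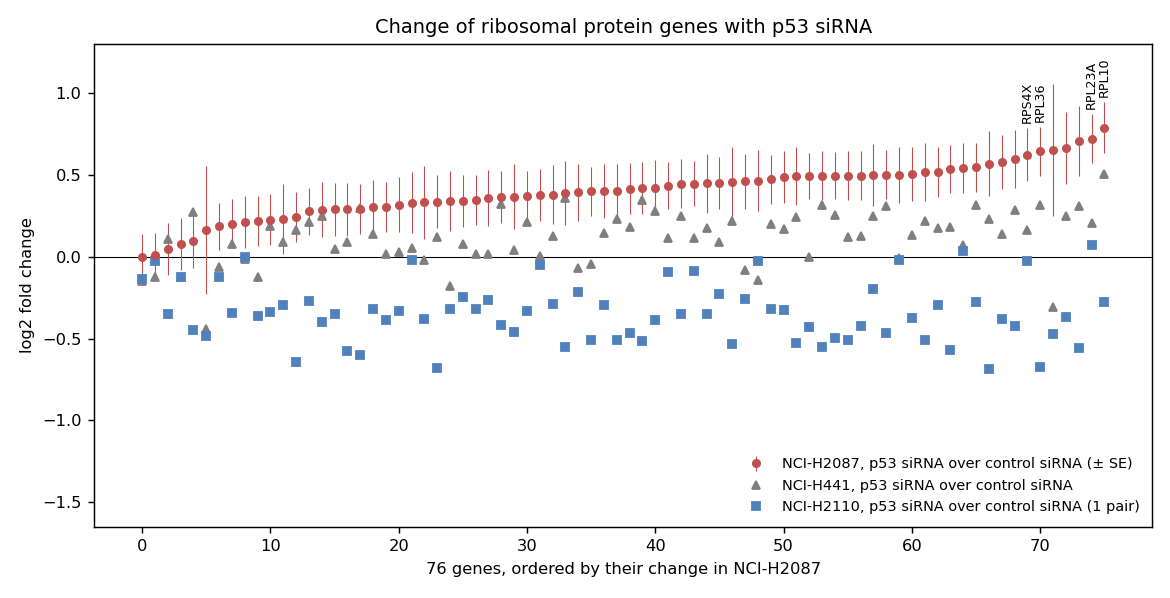
Log2 fold change of the 76 genes drawn (y axis), p53 siRNA over control siRNA, ordered along the x axis by the change in NCI-H2087 (circles, with the standard error as bars); triangles are NCI-H441 and squares the single pair of NCI-H2110 libraries. RPL10, RPL23A, RPL36 and RPS4X, labelled, passed the test in NCI-H2087, where the changes lie above most of those in the other lines.

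In NCI-H441, 0 of the 80 genes were called by edgeR, DESeq2 or limma-voom, against 0% of all genes called higher and 0.00556% lower by edgeR. DESeq2 called 0.188% of its 10658 genes with an adjusted p higher and 0.0938% lower, and limma-voom 0% and 0.00556% of all genes. The replicate block also called 0 of the 80, against 0.273% of all genes higher and 0.145% lower. At an unadjusted p below 0.05 in edgeR, 4 were higher, among them RPL10, and 0 lower, with no count made over all genes. The smallest edgeR adjusted p was 0.933. The estimate was positive for 65 of the 80, with a median log2 change of 0.14 against 0.01 over all genes. Groups did not overlap for 37 genes in the higher and 5 in the lower direction, against 17% of all genes in each direction. The 5 lower ones were RPL26, RPS27A, RPS25, RPS20 and RPL7L1.

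RPL10 had 1107 and 1104 CPM with p53 siRNA in NCI-H441 against 838 and 721 CPM with control siRNA (log2 fold change 0.50 ± 0.16, edgeR adjusted p = 0.933). The p53 siRNA libraries lay above both control libraries. RPL22L1 and RPL9, the lowest in NCI-H441, each rested on 1 library. RPL9 had 228 and 73.3 CPM with p53 siRNA against 183 and 190.4 CPM with control siRNA, and RPL22L1 had 25.8 and 10.6 against 21.8 and 27.8 CPM. In both genes p53 siRNA replicate 2 was the low library, and the change of RPL9 ran from -1.35 to 0.29 when single libraries were left out.

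The change in NCI-H2087 minus that in NCI-H441 tests whether the lines differed. Of the 80 genes, 0 were called by edgeR, DESeq2 or limma-voom, against 0.239% of all genes higher and 0.172% lower by edgeR. DESeq2 called 2.34% of its 13098 genes with an adjusted p higher and 1.3% lower, and limma-voom 0.111% and 0.0612% of all genes. At an unadjusted p below 0.05 in edgeR, 4 were higher (RPS3A, RPS7, RPL23A and RPL23) and 1 lower, with no count made over all genes. The median difference was 0.26 log2, with 76 of the 80 positive. The block changed 1 call, that of RPS3A, with a difference of 0.61 ± 0.26 (edgeR adjusted p = 0.365), which passed with the replicate block (0.63, edgeR adjusted p = 0.0482); that fit called 4.66% of all genes higher and 4.26% lower. In the additive model of line and siRNA over all 10 libraries, 0 of the 80 were called by the 3 tools. Of all genes, edgeR called 0.339% higher and 0.0556% lower, and limma-voom 0.417% and 0.106%. DESeq2 called 2.94% and 1.26% of its 14492 genes with an adjusted p. At an unadjusted p below 0.05 in edgeR, 3 of the 80 were higher, with no count made over all genes. With the replicate block 0 were called as well, against 0.328% of all genes higher and 0.0667% lower. The smallest p belonged to RPL10, with a common change of 0.46 ± 0.16 (edgeR adjusted p = 0.219).

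NCI-H2110 had 1 library per siRNA, so its differences have no replicate check and no test. The log2 ratio of p53 siRNA over control siRNA was negative for 78 of the 80 genes, with a median of -0.35. Over the 12385 genes with at least 50 counts in either library, the median was -0.03 and 53.1% were negative. Past 1.5-fold, 6 members were lower and 0 higher, against 4.08% of all genes lower and 4.84% higher.

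Among the 6 lower genes, RPL18, a large subunit protein, had 174 CPM with p53 siRNA against 280.3 CPM with control siRNA, a log2 ratio of -0.69. RPL21 stood at -0.68, RPL36 at -0.67, RPS28 at -0.64 and RPS19, the first gene linked to Diamond-Blackfan anaemia, at -0.60. RPL36, which rose in NCI-H2087, had 156.8 CPM with p53 siRNA against 249.7 CPM with control siRNA in this line. The 2 positive ratios were those of RPL23A, with 415 against 395 CPM (0.07), and RPL5, with 773 against 753 CPM (0.04).

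Set side by side, 63 of the 80 genes had a positive change in NCI-H2087 and NCI-H441 and a negative one in NCI-H2110. A further 14 were positive in NCI-H2087 alone, 2 (RPL23A and RPL5) were positive in all 3 lines, and RPL7L1 was negative in all 3. By replicate number, the median change over the 80 genes was 0.315 and 0.496 in the NCI-H2087 pairs, 0.115 and 0.169 in the NCI-H441 pairs, and -0.351 in the NCI-H2110 pair. Set against the mean of the NCI-H2087 controls, 75 genes were higher in p53 siRNA replicate 1 and 79 in replicate 2, with medians of 0.293 and 0.516 log2.

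Members with a pyrimidine run at the listed start and those without had near-equal medians. With and without the run (47 and 18 genes), NCI-H2087 had median log2 changes of 0.399 and 0.397, NCI-H441 had 0.136 and 0.144, and NCI-H2110 had -0.381 and -0.326.

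The lines also differed in the mix of ribosomal protein transcripts they held with control siRNA. Of the 80 genes, 13 were higher and 15 lower in NCI-H2087 than in NCI-H441 (edgeR, adjusted p below 0.05), against 22% of all genes higher and 20.1% lower. The median difference was 0.04 log2. Members' counts of calls in either direction thus lay near those of all genes.

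RPLP2, an acidic stalk protein, had 2448 and 2574 CPM in NCI-H2087 against 1058 and 995 CPM in NCI-H441, a difference of 1.29 ± 0.15 log2 (edgeR adjusted p = 0.000144). RPL28, of the large subunit, had 1846 and 2236 CPM in NCI-H2087 against 1005 and 834 CPM in NCI-H441 (1.15 ± 0.17, edgeR adjusted p = 0.000536). RPL5 had a difference of 1.02 ± 0.15 and RPL27A one of 1.01 ± 0.20 (edgeR adjusted p = 0.00062 and 0.00284). RPS25, RPS13, RPS16, RPL18, RPS23 and RPS20 were also called higher in NCI-H2087, with differences of 0.43 to 0.73 log2. For RPLP2 and RPL28 no library of one line came near those of the other.

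RPL23A was lowest in NCI-H2087 relative to NCI-H441, with 277 and 282 CPM against 1121 and 1339 CPM (difference -2.14 ± 0.16 log2, edgeR adjusted p = 7.73e-06). RPL39, a short protein of the exit tunnel, had 727 and 756 CPM in NCI-H2087 against 1725 and 1576 CPM in NCI-H441 (-1.15 ± 0.15, edgeR adjusted p = 0.000302). RPS4X had 1967 and 1957 CPM in NCI-H2087 against 4750 and 3893 CPM in NCI-H441 (-1.14 ± 0.16, edgeR adjusted p = 0.000458). RPL17 (-1.21), RPL36A (-1.03) and RPS26 (-1.01) were lower by similar amounts. RPL23, RPL38, RPS2, RPL10, RPS21, RPL27, RPS3, RPS3A and RPL6 were also called lower, with differences of -0.78 to -0.41 log2. This comparison uses the same NCI-H2087 control libraries as the siRNA comparison, so the values of a gene in both are not independent. When any single control library of these 2 lines was left out, fewer of the 80 genes were called than the 28 with all libraries. Fewer of all genes were called as well, and removals of other libraries were not examined for this comparison. The median difference then ran from -0.047 to 0.069 log2.

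**Figure D3:**
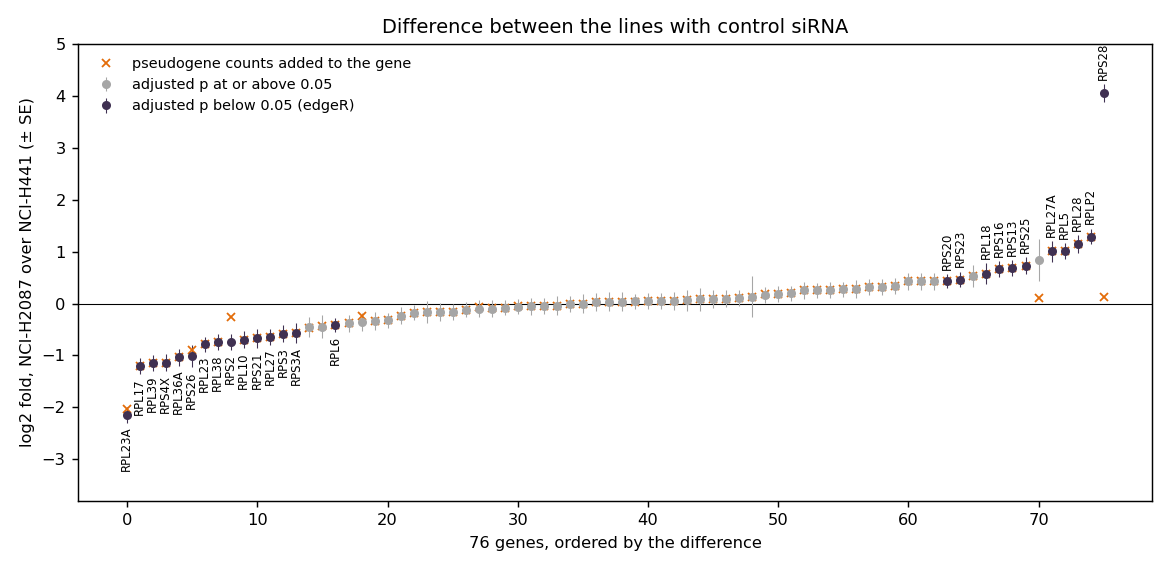
Difference of the 76 genes drawn between NCI-H2087 and NCI-H441 with control siRNA (y axis, log2 fold with its standard error), ordered along the x axis; dark points passed the test at an adjusted p below 0.05 and crosses give the value with pseudogene counts added to the gene. RPS28 moved to 0.13 and RPS2 to -0.26 when pseudogene counts were added, and RPL23A was at -2.04 against its own -2.14.

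RPS28 is the member whose value depended most on how counts were divided. It had 695 and 752 CPM in NCI-H2087 against 45.8 and 41.4 CPM in NCI-H441 with control siRNA, a difference of 4.05 ± 0.17 log2 (edgeR adjusted p = 8.59e-07). Its near-identical pseudogene RPS28P7 held 8333 and 12476 counts in the NCI-H2087 controls, against 25265 and 26322 in those of NCI-H441. With the counts of named pseudogenes added to each gene, the RPS28 difference was 0.13 (edgeR adjusted p = 0.528). The low RPS28 value in NCI-H441 therefore stands beside a high value of its pseudogene, and in this line pseudogenes took up to 96.1% of the summed counts.

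Named ribosomal protein pseudogenes, 1136 in all, had no counts in any library in 624 cases, and together took 0.226% to 0.619% of each library. For 8 members they held at least 10% of the summed counts in at least 1 library, among them RPS28, RPL23A, RPL9, RPL21, RPS2, RPS26 and RPL3. For 67 members the share was below 1% in all libraries. RPL23A had 63.1% to 71.3% of the summed counts on pseudogenes, mostly RPL23AP42, and RPL21, of the large subunit, had 38.3% to 54.8%. The levels of these genes are uncertain, since near-identical copies can share reads.

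**Figure D4:**
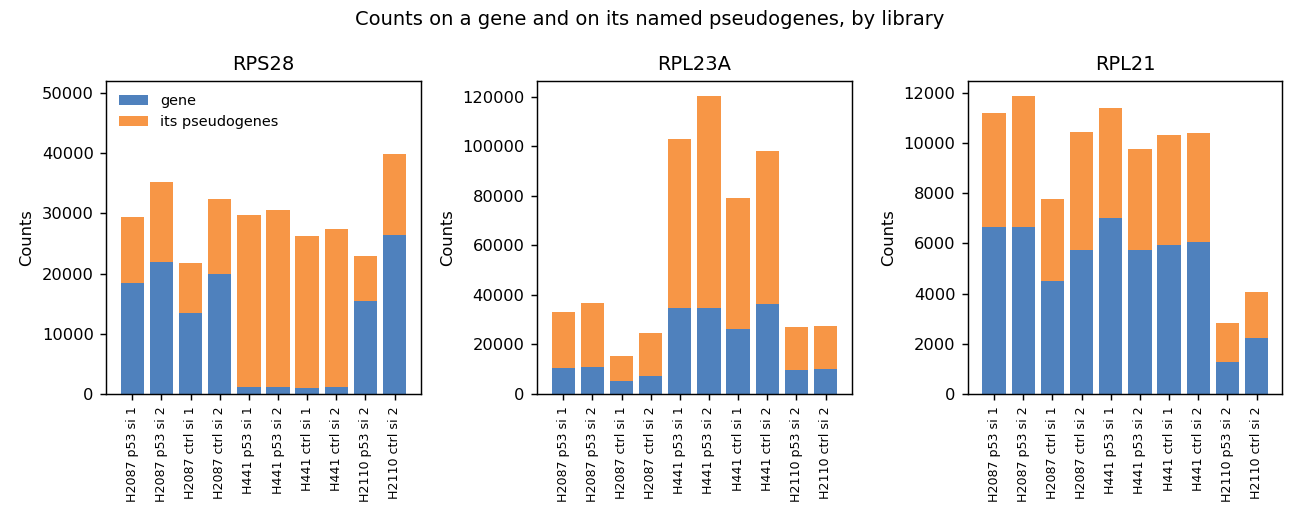
Counts (y axis) on RPS28, RPL23A and RPL21 and on their named pseudogenes, stacked, in each of the 10 libraries, with p53 siRNA libraries left of control libraries in each line. In RPS28 the pseudogenes hold up to 96.1% of the sum in NCI-H441, while in RPL23A they hold 63.1% to 71.3% and in RPL21 38.3% to 54.8% over the libraries.

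With pseudogene counts added, 4 members rose in NCI-H2087 with p53 siRNA, against 5% of all genes called higher and 3.72% lower in that fit. They were RPL10, RPL36 and RPS4X (edgeR adjusted p = 0.0157, 0.0294 and 0.0436) and RPL23A, whose log2 change was 0.79 (edgeR adjusted p = 0.0161) in place of 0.72. RPS2 lost its call between the lines, with a difference of -0.26 (edgeR adjusted p = 0.189) in place of -0.74. For the siRNA comparison in NCI-H441, RPL9 had a log2 change of -0.10 in place of -0.31.

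Levels of different genes were compared per kilobase of the longest annotated coding sequence, as the mean over the 6 groups of line and siRNA. The median was 1280 CPM per kilobase, with 10th and 90th percentiles of 423 and 3560 and a ratio of 8.41 between them. Per kilobase of the longest annotated transcript that ratio was 17.7, and 6 of the 10 highest and 6 of the 10 lowest genes were shared between both lengths. The order among members therefore depends on the length used.

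RPL41, which encodes the smallest ribosomal protein, was highest per coding length, with 16630 CPM per kilobase of coding sequence and values of 10054 to 22617 over the libraries. RPL39 followed with a mean of 7479 and libraries from 4752 to 11502, and RPS27, a zinc finger protein of the small subunit, with 6343 and libraries from 4942 to 7669. Per kilobase of the longest transcript RPL41 ranked 13, RPL39 ranked 2 and RPS27 ranked 1. The order per coding length also depended on the line: RPL39 exceeded RPS27 in the 4 NCI-H441 libraries only. In the 4 NCI-H2087 libraries RPLP2 (7097 to 10807) and RPS20 (7746 to 8011) were above RPL39 (4752 to 6441). The ranges of RPL39 and RPS27 overlapped, and that of RPL41 met RPL39 only through the p53 siRNA library of NCI-H2110, at 10054. Among the lowest were RPL26L1 with 121 (57.5 to 187.7) and RPL22L1 with 52.8 (25 to 83.2) CPM per kilobase, both relatives of another member.

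**Figure D5:**
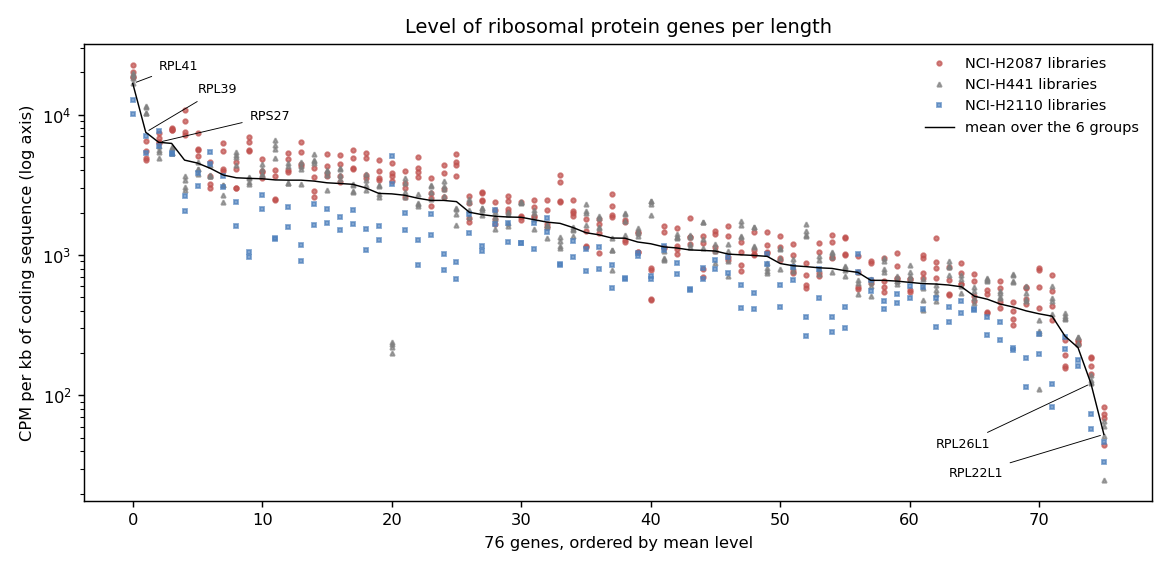
Level of the 76 genes drawn in each library (y axis, CPM per kilobase of coding sequence, log axis), ordered along the x axis by the mean over the 6 groups, which the line shows. RPL41, RPL39 and RPS27 have the highest means and RPL26L1 and RPL22L1 lie among the lowest; RPS28 lies near 200 to 239 in the 4 NCI-H441 libraries.

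Several members and relatives outside the rule form pairs of closely related genes. The share of the relative was taken per coding length, meaning the longest annotated coding sequence of each gene, as the mean over the 6 groups. RPL22L1 made up 7.49% of RPL22 and RPL22L1 (3.71% to 11% over the libraries), and RPL26L1 made up 6.08% of its pair with RPL26 (4.54% to 9.04%). RPL39L, a relative of RPL39 best known from testis, made up 6.14% (3.72% to 7.42%). RPL7L1 made up 30.3% of its pair with RPL7 (25% to 34.4%) and RPL36AL 43.5% of its pair with RPL36A (29.6% to 52.9%). The lengths used were 318 bases for RPL36AL and 426 for RPL36A, and without length correction the share was 36.7%. RPS27L, a known p53 target, made up 1.34% of its pair with RPS27 (0.421% to 2.08%), on lengths of 300 and 252 bases. RPL3L and RPL10L, known from muscle and testis, had 0 to 3 counts in each library.

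RPL39L rose in NCI-H2087, with 55.5 and 49.7 CPM with p53 siRNA against 33.7 and 29.2 CPM with control siRNA (log2 fold change 0.74 ± 0.18, edgeR adjusted p = 0.0331). The groups did not overlap. In NCI-H441 RPL39L had 114 and 124 CPM with p53 siRNA against 99.1 and 126 CPM with control siRNA, so there the groups overlapped. Its share of the pair in NCI-H2087 was 6.16% and 4.80% with p53 siRNA against 4.43% and 3.72% with control siRNA.

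Other genes of the translation machinery were read from lists that, like the members, were chosen with earlier results of these data known. Over 6 such lists, 166 genes were tested: 12 rose and 1 fell in NCI-H2087 (edgeR, adjusted p below 0.05), or 43 and 3 with the replicate block. Of all genes, 4.98% rose and 3.69% fell by edgeR, and 12.8% and 12.6% with the block. Of 20 TOP mRNAs that encode translation factors and the like, EEF1B2, a nucleotide exchange subunit of elongation factor 1, rose (0.72 ± 0.14, edgeR adjusted p = 0.0156), with 866 and 893 CPM with p53 siRNA against 557 and 512 CPM with control siRNA. All 20 had positive estimates, with a median of 0.36. Among 9 host genes of small nucleolar RNAs, ZFAS1 rose by 0.80 ± 0.18 and SNHG16 by 0.64 ± 0.15 (edgeR adjusted p = 0.0262 and 0.0298), while the list's median was 0.01.

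Of 35 ribosome assembly factors, EIF6, which keeps free 60S subunits from joining 40S, rose (1.00 ± 0.22, edgeR adjusted p = 0.0241), at 169 and 147 CPM with p53 siRNA against 87.6 and 70.3 CPM with control siRNA. Of 14 genes of RNA polymerase I and its factors, TAF1A rose (1.05 ± 0.28, edgeR adjusted p = 0.0498) and TAF1C fell (-0.77 ± 0.18, edgeR adjusted p = 0.0316), both subunits of the selectivity factor SL1. MYC, a regulator of ribosome production in the same list, had 838 and 1290.1 CPM with p53 siRNA against 523 and 622 CPM with control siRNA (0.89 ± 0.26, edgeR adjusted p = 0.0669, or 0.000274 with the replicate block). Of 13 mTORC1 and TOP mRNA regulators, RHEB, the GTPase that activates mTORC1, rose (0.91 ± 0.19, edgeR adjusted p = 0.0192). The groups did not overlap for EIF6 or MYC.

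Of 75 mitochondrial ribosomal protein genes, 6 rose in NCI-H2087 and 0 fell, with a median of 0.19 and 55 positive estimates, against 4.98% of all genes called higher and 3.69% lower. With the replicate block 16 rose and 2 fell, against 12.8% and 12.6% of all genes. The 6 were MRPS30, MRPS10, MRPL19, MRPL9, MRPS2 and MRPL52, with changes of 0.57 to 0.84 log2. MRPS30 had 115 and 125 CPM with p53 siRNA against 67.7 and 65.7 CPM with control siRNA (0.84 ± 0.15, edgeR adjusted p = 0.0103). In NCI-H2110, 63 of the 75 had negative ratios, with a median of -0.30, and the 20 translation factor TOP mRNAs had a median of -0.08 with 13 negative. The cytosolic ribosomal protein genes, at -0.35 with 78 of 80 negative, lay lower than both lists in that line; this difference was not tested.

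In NCI-H441, 0 of the 166 genes were called by edgeR, DESeq2 or limma-voom. Of all genes, edgeR and limma-voom each called 0% higher and 0.00556% lower. DESeq2 called 0.188% and 0.0938% of its 10658 genes with an adjusted p. At an unadjusted p below 0.05 in edgeR, 2 of the 166 were higher and 7 lower, with no count made over all genes. Of the 8 lung epithelial markers, 5 rose with p53 siRNA in NCI-H2087 and SFTPB fell, as values that moved in the same libraries as the ribosomal protein genes. Their summed level there was 9430 and 9370 CPM with p53 siRNA against 4450 and 4150 CPM with control siRNA, mostly KRT18. The part of these markers in the result was not tested.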

How the data were processed

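RNA of 10 libraries was sequenced. The deposited table holds whole-number counts per gene, unnormalized; Bowtie2, RSEM 1.2.12 and hg19 appear in the submitters' processing notes, and whether the counts are rounded RSEM estimates is not given in the sources used here. GENCODE 29 named 52301 of 57736 IDs. Columns were assigned by the labels. The members and gene lists were chosen with earlier results of these data known. Members named in the text are those called in a contrast, the 4 highest and 4 lowest per contrast, paralog pairs, 8 chosen genes and the extremes per length; the level of the siRNA's target transcript and single values of 4 members are not reported here, and figures leave those members out.

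Tests on the deposited counts used edgeR 4.0.16 under R 4.3.3 (filterByExpr on the 6 groups, 17978 genes, TMM scaling, 1 mean per group over all 10 libraries, 4 residual degrees of freedom, two-sided quasi-likelihood F test, Benjamini-Hochberg adjustment over all genes; standard errors derived from F). An additive model of line and siRNA had 6. The biological coefficient of variation was 19.8%. NCI-H2110 was described by the log2 ratio of its CPM values (prior count 2) for genes with at least 50 counts. Alternatives used DESeq2 1.42.0, limma-voom (limma 3.58.1), other scalings, no filter, the replicate block (2 residual degrees of freedom), pseudogene counts added to the parent gene, and single libraries left out. The fit was run on simulated counts drawn without a pairing of replicates, so this check cannot show how the main fit handles paired libraries.

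Replicate numbers were treated as a pairing in the replicate block only, and the main fit did not use them. Over 9332 genes, the difference between replicates 1 and 2 in the p53 siRNA libraries correlated with that in the controls (r = 0.534 in NCI-H2087 and 0.595 in NCI-H441). The main test thus ignored a pairing that these correlations show. Replicates differed by more than counting error (chi-square of 19.7 to 58.8 for each gene on average).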

Additional observations from a re-analysis of the deposited data

Results flagged for a closer look

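RPS27A, which encodes ubiquitin fused to a small subunit protein, moved in opposite directions in the 2 replicated lines. It had 966 and 1145 CPM with p53 siRNA against 931 and 885 CPM with control siRNA in NCI-H2087, whereas in NCI-H441 it had 699 and 636 CPM with p53 siRNA against 719 and 738 CPM with control siRNA. It was picked because the siRNA groups did not overlap in either line and moved opposite ways, a pattern not tested as such. That pattern depended on TMM scaling. Under scaling by library totals the NCI-H2087 groups overlapped, with p53 siRNA replicate 1 below both controls. The interaction gave a difference of 0.34 ± 0.21 log2 (edgeR adjusted p = 0.535).

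The median change over the 80 genes was 0.76 log2 higher in NCI-H2087 than in NCI-H2110, as the medians had opposite signs. The change in the share of counts on these genes was 2.21 percentage points higher in NCI-H2087 than in NCI-H2110, again with opposite signs. Neither difference was tested, since NCI-H2110 had 1 library per siRNA.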

How the results depend on the processing

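In NCI-H2087 the 4 called members became 1 under scaling by library totals, 22 with no filter, 29 with DESeq2, 9 with limma-voom and 49 with the replicate block, and 0 to 6 when single libraries were left out; the cause was not tested. All genes called higher made up 3.55% under totals, 5.27% with no filter, 8.73% with DESeq2, 5.02% with limma-voom, 12.8% with the block and 0.661% to 3.86% without single libraries. The median there was 0.23 under totals and 0.29 to 0.52 without single libraries. In NCI-H441, 1 member was called with no filter (0.143% of all genes higher), and the count moved when p53 siRNA replicate 1 was left out. For the difference between lines, 2 were called with no filter (1.52% of all genes higher, 1.24% lower). The replicate block called 1, against 4.66% of all genes higher and 4.26% lower. That count also moved when p53 siRNA replicate 1 of NCI-H441 was left out. The median of the difference was 0.14 under totals and 0.16 to 0.38 without single libraries. For the common change, 2 were called with no filter (2.6% of all genes higher), and the median ran from 0.081 to 0.27 without single libraries. Between the lines with control siRNA, 18 to 22 members were called and the median ran from -0.047 to 0.069 without single libraries; no replicate block could be fitted there, since blocks lie within lines. The replicate block changed no other count of calls among the members. The share of counts in NCI-H2110 changed by -1.18 percentage points with pseudogene counts taken out of the total and by -1.07 with those of ribosomal protein pseudogenes added. The ratio of the 90th to the 10th percentile was 17.7 on the longest transcript, and without length correction the shares of RPL36AL and RPS27L were 36.7% and 1.6%.

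Some signs turned. In NCI-H2087, RPL7L1 was 0.015 with RLE size factors and with DESeq2 and 0.019 with no filter or only the libraries compared; under totals RPS20 was -0.16, RPS27 -0.13, RPS25 -0.097 and RPL22L1 -0.014, and under upper quartile scaling RPS20 was -0.047 and RPS27 -0.013. In NCI-H441, RPL11 was -0.031 under totals. For the difference between lines, RPS19 was 0.0080 with RLE size factors and with DESeq2 and 0.015 with no filter. Without single libraries the ranges that crossed 0, among the genes named in each comparison, were in NCI-H2087, -0.21 to 0.69 for RPL22L1, -0.035 to 0.058 for RPL7L1, -0.0099 to 0.037 for RPS20, -0.091 to 0.23 for RPS25 and -0.082 to 0.16 for RPS27. In NCI-H441 they were -0.026 to 0.058 for RPL11, -1.22 to 0.057 for RPL22L1, -0.051 to 0.14 for RPL26L1, -0.42 to 0.029 for RPL35A, -0.033 to 0.17 for RPL5, -0.20 to 0.17 for RPL7 and -1.35 to 0.29 for RPL9. For the difference between lines they were -0.10 to 0.12 for RPS19 and -0.19 to 0.058 for RPS27. Of the other single-gene values, 1031 kept their direction and side of the threshold, 56 lost a call and 28 gained one.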
